A study of Homo sapiens with 4 samples.

Results

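The heat shock and DNAJ chaperone transcripts are the RNAs of the HSPA, HSP90, HSPB, HSPD1, HSPE1, HSPH1, DNAJA, DNAJB and DNAJC genes. They were chosen by gene symbol, without transcripts annotated as pseudogenes. The rule itself uses no measured value, but earlier results of these data were known when it was set. The rule gave 283 of the 75165 listed transcripts and 68 of the 20298 listed genes. Of the 68 gene identifiers, 63 are protein-coding genes. The rule also takes in the non-coding neighbours DNAJC3-DT, DNAJC9-AS1 and DNAJC27-AS1, and processed transcripts of the pseudogene loci HSP90AB2P and HSP90AA6P, none of which encodes a listed chaperone.

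The RNA came from MDA-MB-231, a human triple negative breast cancer (TNBC) cell line. All cells carried Flag-tagged YTHDC1, a nuclear reader of N6-methyladenosine (m6A), expressed from the CMV promoter of a lentiviral vector. In the authors' general protocol, lentivirus was added at a multiplicity of infection of 4 and puromycin was used at 2 μg/ml. They state 4 days of selection for knockout cells of this line and no time for the Flag-YTHDC1 cells. The control libraries are from overexpressing cells too, so no library shows the level of chaperone RNA without the vector. After 3 UV exposures at 120000 μJ/cm2, nuclei were isolated and lysed. Ribosomal RNA was removed before the libraries were made. There were 2 Flag-YTHDC1 IP libraries, recovered from 500 μg of lysate protein with 5 μg of anti-Flag antibody, and 2 input libraries from 50 μg.

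RIP-seq was done to find the RNAs that YTHDC1 binds, by setting IP against input. The only measured value used here is the authors' normalized count per transcript, averaged across the 4 libraries. It has no value per library, no SD and no depth, so nothing was compared between IP and input and no test was run. A level below is therefore a level in IP and input RNA combined, both nuclear, and a difference in binding and a difference in abundance cannot be told apart in it. The counts are not divided by transcript length, which was not available, so which gene has more counts does not say which has more RNA molecules.

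Molecular chaperones bind unfolded protein, and some of them release it in cycles of ATP hydrolysis. HSP70 proteins, encoded by the HSPA genes, hold short hydrophobic stretches, and J-domain proteins, encoded by the DNAJ genes, deliver substrates to them and stimulate their ATPase. HSP90 proteins act later on kinases, receptors and other clients, small heat shock proteins (HSPB) hold aggregating proteins, and the HSPD1/HSPE1 chaperonin folds protein in mitochondria. Heat and other proteotoxic stress induce many of these genes through HSF1, which binds heat shock elements, and stress of the endoplasmic reticulum (ER) induces others through ER stress elements.

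Promoters of some of these genes carry a binding motif of either stress response. The stretches that hold these motifs are shown because the members with the most counts include their carriers. The heat shock element was searched on both strands as GAA, any 2 bases, TTC, any 2 bases and GAA. The ER stress element was searched on both strands as CCAAT, any 9 bases and CCACG. The searched RefSeq windows (GRCh38.p14) run from 250 bases before to 50 bases after each annotated start site, and 60 of the 67 member symbols had 79 such windows. A heat shock element with no mismatch was present at 7 of these 60 genes (11.7%), against 0.608% of all 27305 genes with a window. By window the shares were 8.86% of 79 and 0.490% of 35116. The ER stress element was present at 2 of the 60 genes, HSPA5 and HSP90B1, against 0.0916% of all genes. Motif letters are in capitals in the sequences below, which are written 5′ to 3′ on the strand of the gene. Stretches that reach into an annotated gene are kept short.

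The heat shock elements of the genes for cytosolic and nuclear chaperones were as follows, with HSPA8 and HSP90AB1 each holding a pair of separate sites.
HSPA6, chr1:161524443-161524501, plus strand: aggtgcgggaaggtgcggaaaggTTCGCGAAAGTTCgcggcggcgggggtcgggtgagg
HSPA8, chr11:123062171-123062199, minus strand: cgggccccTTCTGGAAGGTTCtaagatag
HSPA8, chr11:123062346-123062374, minus strand: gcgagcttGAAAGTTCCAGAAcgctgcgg
HSP90AA1, chr14:102087112-102087140, minus strand: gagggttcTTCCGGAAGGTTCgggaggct
HSP90AB1, chr6:44247770-44247798, plus strand: ggagcaggTTCTGGAAGATTCatgggctc
HSP90AB1, chr6:44247823-44247851, plus strand: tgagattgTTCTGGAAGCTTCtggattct
DNAJA1, chr9:33025268-33025296, plus strand: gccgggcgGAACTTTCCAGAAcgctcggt
DNAJB6, chr7:157336850-157336908, plus strand: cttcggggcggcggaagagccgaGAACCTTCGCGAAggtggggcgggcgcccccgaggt

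The mitochondrial chaperonin gene HSPD1 held overlapping matches, 1 on each strand, which together form 1 longer run of alternating units.
HSPD1, chr2:197500062-197500090, minus strand: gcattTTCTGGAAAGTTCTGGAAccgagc

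The ER stress elements lay upstream of the genes for the ER chaperones BiP (HSPA5) and GRP94 (HSP90B1), the second of which has a site on each strand.
HSPA5, chr9:125241371-125241429, minus strand: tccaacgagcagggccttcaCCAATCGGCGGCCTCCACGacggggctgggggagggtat
HSP90B1, chr12:103930196-103930254, plus strand: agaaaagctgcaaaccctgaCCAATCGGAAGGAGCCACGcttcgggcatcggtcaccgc
HSP90B1, chr12:103930301-103930359, plus strand: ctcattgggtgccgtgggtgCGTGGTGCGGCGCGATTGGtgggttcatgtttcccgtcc

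Distances were counted from the annotated start site of the window as base 0. The site of HSPA6 ran from base -74 to -62 and that of HSP90AA1 from -88 to -76. The nearer site of HSPA8 ran from -55 to -43. The sites of HSP90AA1, HSPA8, HSP90AB1 and HSPD1 lie inside the annotated gene, upstream of an internal start site. The match at DNAJA1 lay just after the start site, from base 3 to 15. With 1 mismatch allowed over the 9 fixed letters, 16 of the 60 genes (26.7%) held a match, against 7.60% of all genes. The 9 genes added were HSPA1A, HSPA1B, HSPA1L, HSPA4L, HSPA9, HSPB1, DNAJB1, DNAJB4 and DNAJC15. HSPA1A and HSPA1L, which have 259 bases between them on chromosome 6, shared a single such site at chr6:31815437-31815449. HSPH1 and HSPE1 held no match in their windows under either setting. The HSPD1 stretch at chr2:197500062-197500090 precedes the annotated start of HSPE1 at chr2:197500379 but lies outside the 250 bases searched. A match is a description of the reference sequence and not evidence of a bound factor.

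**Figure D1:**
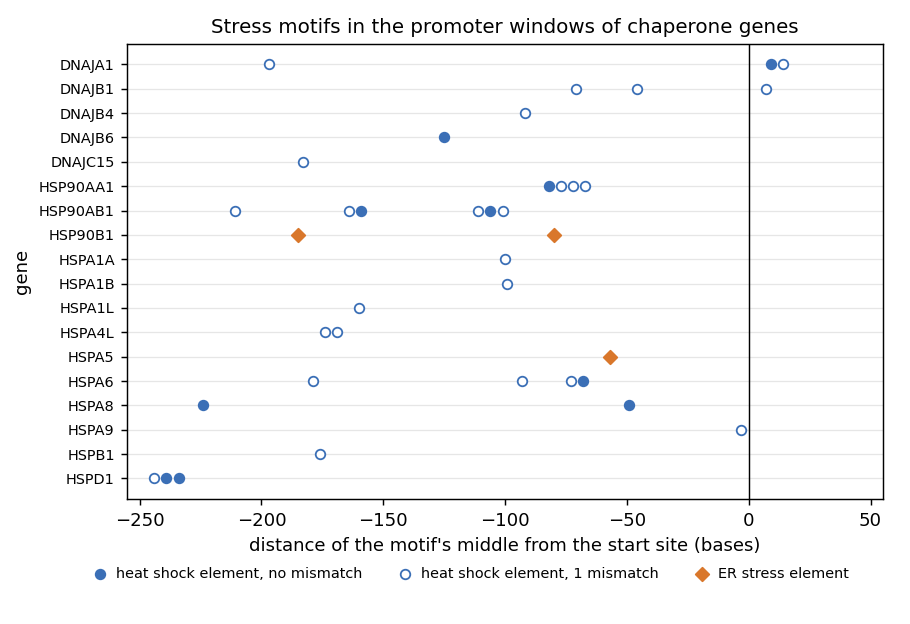
Position of stress motifs in the promoter windows of chaperone genes. Each row is a gene, the x axis is the distance of the motif's middle from the start site in bases, filled circles are heat shock elements with no mismatch, open circles those with 1 mismatch and diamonds ER stress elements. Filled circles appear in 7 genes and diamonds in HSPA5 and HSP90B1 alone among these genes.

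Chaperone transcripts made up 0.911% of the summed mean normalized counts of the table, 303813 of 33361205. The mean normalized count of a member ranged from 3.50 to 49439, with a median of 69.9, against 44.2 over all transcripts. HSP90 transcripts held 39.2% of the chaperone counts, HSPA transcripts 35.8%, DNAJC 10.6%, DNAJB 6.68%, DNAJA 2.55%, HSPD1 2.08%, HSPB 1.76%, HSPH1 1.31% and HSPE1 0.0834%. The counts were concentrated, since HSP90AA1, HSPA8, HSP90AB1 and HSPA5 together held 57.2% of them. These are shares of reads, and long transcripts collect more reads per molecule.

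As a check of the cell line, the 6 markers of mesenchymal breast cancer cells VIM, CD44, EGFR, AXL, CAV1 and MSN had summed mean normalized counts between 7624 and 80785. Of the 5 markers looked for as low or absent, CDH1 had 1 listed transcript at 10.0, GATA3 summed to 584, and ESR1, PGR and KRT20 had none among the rows used. YTHDC1, the overexpressed gene, summed to 55488.

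By annotated type, the 283 members were 158 protein-coding transcripts, 51 retained-intron transcripts, 39 transcripts annotated for nonsense-mediated decay, 31 processed transcripts and 4 lncRNAs. Since the rule left out pseudogenes and took in few lncRNAs, shares were set beside the table over the first 4 types alone, 279 member transcripts and 66870 in all. Protein-coding transcripts were 56.6% of these members and 58.7% of the table, retained-intron transcripts 18.3% and 17.3%, decay transcripts 13.98% and 9.72%, and processed transcripts 11.1% and 14.3%. By counts rather than by number, protein-coding transcripts held 91.9% of the chaperone total, decay transcripts 4.97%, retained-intron transcripts 2.48% and processed transcripts 0.614%. The median mean normalized count was 161 for the protein-coding, 77.1 for the decay, 19.6 for the retained-intron and 19.2 for the processed members. Over all transcripts of these types the medians were 91.0, 42.1, 22.6 and 26.8.

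Retained-intron, decay and processed transcripts are grouped below as non-coding isoforms, since their annotated type is not protein-coding. The name refers to that label and does not mean that a transcript lacks a reading frame. These isoforms held over 50% of the gene's counts in 11 of the 63 protein-coding chaperone genes (17.5%), against 12.6% of all 14050 protein-coding genes. The 11 genes are HSPA9, HSPH1, HSPA12A, DNAJA2, DNAJA3, DNAJB4, DNAJB9, DNAJB14, DNAJC15, DNAJC17 and DNAJC19. Among genes with a summed mean normalized count of at least 100 the shares were 10 of 57 (17.5%) and 10.9%. In the genes with at least 2 listed transcripts, the median share of non-coding isoforms was 15.7% over 51 chaperone genes, with quartiles of 0.783% and 40.3%, and 9.19% over all 11482 genes, with quartiles of 0.643% and 30.1%. The quartiles overlap widely. Summed over all chaperone genes, the non-coding isoforms held 8.05% of the counts, below the 12.4% of all protein-coding genes, since the genes with most counts had few of them. HSPA9 alone carried 26.8% of the chaperone counts in non-coding isoforms, and without it the 8.05% became 6.02%, an exclusion picked once the values were known.

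**Figure D2:**
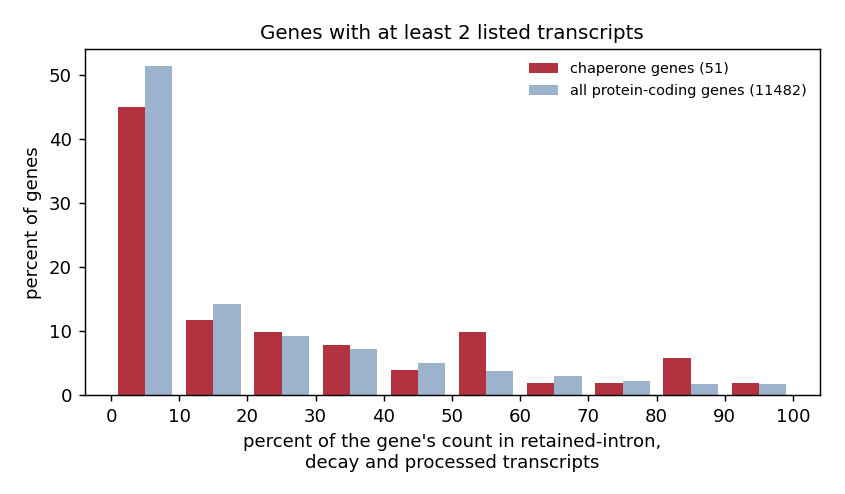
Share of non-coding isoforms in chaperone genes and in all genes. The x axis is the percent of a gene's summed mean normalized count in retained-intron, decay and processed transcripts in bins of 10, and the bars give the percent of 51 chaperone genes and of all 11482 protein-coding genes with at least 2 listed transcripts. The lowest bin holds 45.1% of the chaperone genes and 51.5% of all genes.

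In the HSP70 family, HSPA9 stood apart from HSPA8 and HSPA5 in the kind of transcript that carried its counts. HSPA9 (ENSG00000113013) encodes mortalin, the mitochondrial HSP70 that pulls proteins through the inner membrane. Its 12 listed transcripts summed to 6684, of which retained-intron transcripts held 46.8%, decay transcripts 51.3% and protein-coding transcripts 1.88%. The decay transcript HSPA9-214 had a mean normalized count of 2091 and the retained-intron transcript HSPA9-207 had 2051. The 3 protein-coding transcripts, HSPA9-202, HSPA9-203 and HSPA9-201, had 53.9, 38.2 and 33.6. All 3 lay below every one of its 4 decay transcripts, the lowest of which had 193, and below 4 of its 5 retained-intron transcripts.

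HSPA8 encodes the cytosolic HSP70 known as constitutive, which also uncoats clathrin vesicles, and the gene is also in the heat-inducible list below. HSPA8 had 17 listed transcripts, the most of any chaperone gene, and a summed mean normalized count of 44678. The protein-coding HSPA8-201, HSPA8-221 and HSPA8-224 had mean normalized counts of 17455, 15932 and 9066, and these 3 held 95.0% of the gene's counts. Its 5 retained-intron transcripts lay between 6.17 and 121, and no decay transcript was listed. HSPA8 thus spread its counts over several coding transcripts, and its non-coding isoforms held 0.376% of them.

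HSPA5 had a single listed transcript, HSPA5-201, at 27859. HSPA1A and HSPA1B encode nearly identical stress-inducible HSP70 proteins from intronless genes 9795 bases apart on chromosome 6. HSPA1A-201 had a mean normalized count of 9256, HSPA1A-202 had 9.33 and HSPA1B-201 had 11546. Reads that fit both genes were divided between them by estimation, so the split is uncertain and their sum, 20811, is the safer value. The stress-induced HSPA6, whose promoter holds a heat shock element without mismatch, had 280 in its only transcript. HSPA4 encodes an HSP110-type nucleotide exchange factor and summed to 4427. Its counts divided into 2024 for HSPA4-201, 1709 for HSPA4-204, both protein-coding, and 693 for the retained-intron HSPA4-203. The remaining HSPA genes HSPA13, HSPA14, HSPA4L, HSPA12A, HSPA2, HSPA1L and HSPA12B summed to between 5.25 and 1285. In HSPA12A, a distant relative of HSP70, the processed transcript HSPA12A-203 had 87.3 and the protein-coding HSPA12A-207 had 80.4. The symbol HSPA14 stands for a pair of gene identifiers in the table, and they were kept apart.

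**Figure D3:**
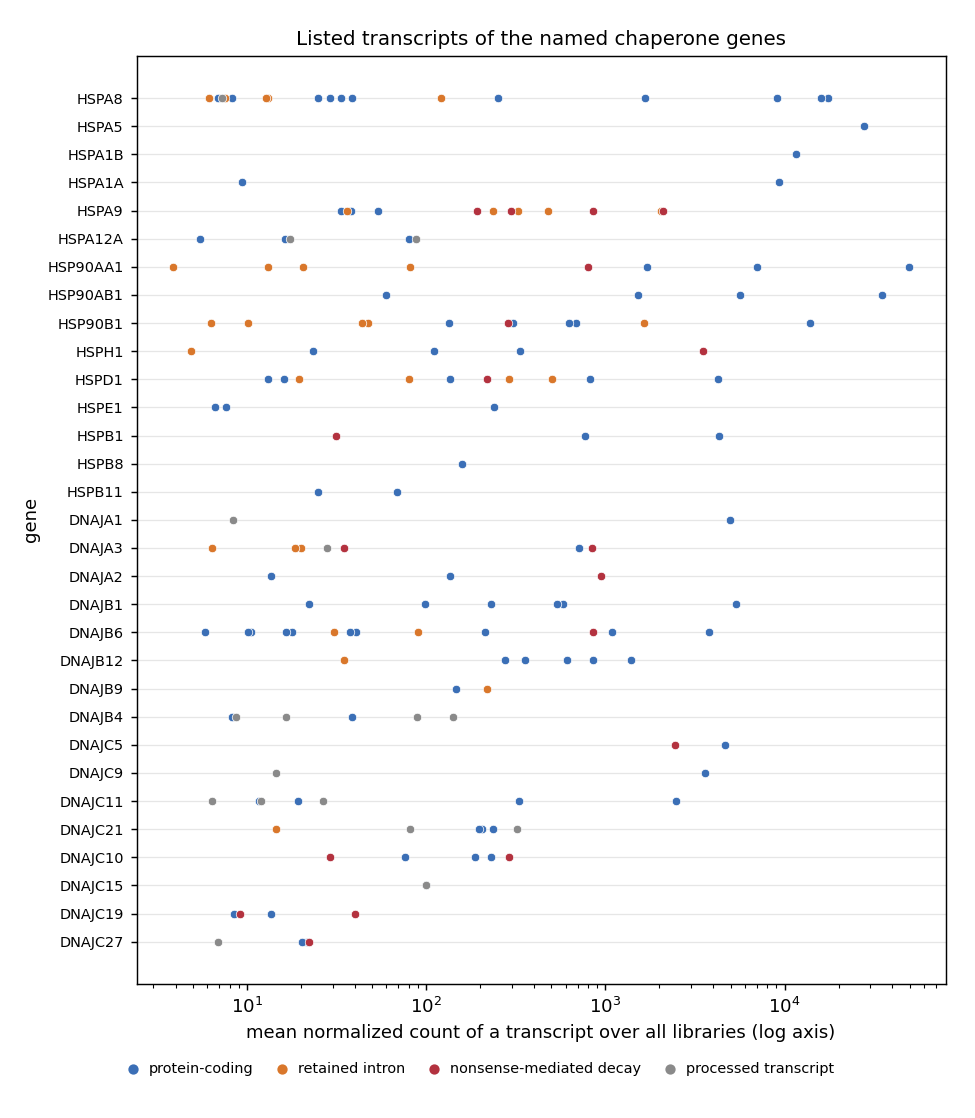
Mean normalized count of each listed transcript of the named chaperone genes. Each row is a gene, each point a transcript, the x axis is the authors' mean over all libraries on a log scale and the colour is the annotated transcript type. In HSPA9, HSPH1 and DNAJA2 the rightmost point is a decay transcript, and in HSP90AA1, HSP90AB1 and HSPA8 it is protein-coding.

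HSPH1 encodes HSP105, the heat-inducible HSP110 that exchanges nucleotide on HSP70. It had 5 listed transcripts and summed to 3982, and a single decay transcript, HSPH1-206, held 88.2% of this at a mean normalized count of 3511. The protein-coding HSPH1-209, HSPH1-202 and HSPH1-201 had 333, 110 and 23.3, and the retained-intron HSPH1-207 had 4.86. The leading transcript was thus more than 10 times the next.

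The HSP90 genes were carried by coding transcripts. HSP90AA1, the stress-inducible cytosolic form, summed to 59078, with 49439 in HSP90AA1-201, 7011 in HSP90AA1-202 and 1714 in HSP90AA1-203. Its decay transcript HSP90AA1-204 had 795 and its 4 retained-intron transcripts lay between 3.88 and 81.5. HSP90AB1, the constitutive cytosolic form, summed to 42274, and its 4 listed transcripts, all protein-coding, had 35052, 5634, 1529 and 59.8. HSP90B1, the ER form, summed to 17586, of which HSP90B1-201 held 78.5% at 13797. The retained-intron HSP90B1-209 had 1642, which made up most of the 9.95% of HSP90B1 counts in retained-intron transcripts. The processed transcripts of the pseudogene loci HSP90AB2P and HSP90AA6P had 68.8 and 7.68, and reads of HSP90AB1 and HSP90AA1 could have been assigned to them.

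HSPD1 and HSPE1 encode the mitochondrial chaperonin HSP60 and its lid HSP10, and they start 104 bases apart on chromosome 2 in opposite directions (HSPD1 at chr2:197486584-197500274 and HSPE1 at chr2:197500379-197503449). HSPD1 summed to 6331 over 10 listed transcripts. Its protein-coding HSPD1-202 had 4234 and HSPD1-206 had 822, whereas the retained-intron HSPD1-213 and HSPD1-214 had 503 and 290. Non-coding isoforms held 17.5% of HSPD1 counts. HSPE1 had 3 protein-coding transcripts with 239, 7.61 and 6.64 and no other type. The read-through transcript HSPE1-MOB4-201, which shares exons with HSPE1, had 50.0.

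The small heat shock protein HSPB1, known as HSP27, summed to 5102, with 4305 in HSPB1-201, 765 in HSPB1-202 and 31.4 in the decay transcript HSPB1-203. HSPB8, which acts with BAG3 in selective autophagy, had 159 in its only transcript. HSPB11, an intraflagellar transport protein that RefSeq lists as IFT25, had 68.6 and 24.9 in its protein-coding transcripts. HSPB genes thus had almost no non-coding isoforms, at 0.587% of their counts.

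The DNAJA genes encode J-domain proteins of the bacterial DnaJ type, and they differed in transcript type. DNAJA1, a cytosolic partner of HSPA8, summed to 4987, nearly all of it in the protein-coding DNAJA1-201 at 4978, with 8.40 in the processed DNAJA1-203. DNAJA2, a second cytosolic partner, summed to 1092, and its decay transcript DNAJA2-202 held 86.3% of that at 942. The protein-coding DNAJA2-201 and DNAJA2-204 had 136 and 13.6. DNAJA3, the mitochondrial form that works with HSPA9, summed to 1661, with 845 in the decay transcript DNAJA3-213 and 708 in the protein-coding DNAJA3-201. The difference between these transcripts of DNAJA3 is small and has no error to be set against.

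Of the 10 DNAJB genes, DNAJB1, the main heat-inducible J-domain protein of the cytosol, summed to 6824 over 6 transcripts, all protein-coding, with 5361 in DNAJB1-201. DNAJB6, a suppressor of protein aggregation, summed to 6201 over 13 transcripts, with 3788 in DNAJB6-209, 1089 in DNAJB6-201 and 852 in the decay transcript DNAJB6-211. DNAJB12, anchored in the ER membrane, summed to 3532, of which 99.0% was in 5 protein-coding transcripts between 277 and 1396. DNAJB1 and DNAJB12 were carried by coding transcripts, whereas 3 genes of lower counts were not. DNAJB9, an ER cofactor of BiP, had 218 in the retained-intron DNAJB9-203 and 148 in the protein-coding DNAJB9-201. DNAJB4 had 141 and 89.0 in the processed DNAJB4-205 and DNAJB4-206 and 38.5 in the protein-coding DNAJB4-201. DNAJB14 summed to 494 over 9 transcripts, of which its 4 decay transcripts held 40.9% and its 2 retained-intron transcripts 16.6%. Its most abundant transcript was the protein-coding DNAJB14-212, at 164 or 33.1%. DNAJB11, another ER cofactor of BiP, had 1594 in its only transcript, DNAJB2 and DNAJB5 summed to 615 and 358, and DNAJB13 had 3.50.

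The DNAJC genes encode a mixed group that shares little beyond the J domain, and 26 protein-coding members were listed. DNAJC5, the cysteine string protein of secretory vesicles, summed to 7117, divided into 4656 for the protein-coding DNAJC5-201 and 2461 for the decay transcript DNAJC5-202. DNAJC9, a histone chaperone, summed to 3626, with 3611 in DNAJC9-201. DNAJC11, of the mitochondrial outer membrane, summed to 2890, with 2483 in DNAJC11-202. DNAJC14, DNAJC1, DNAJC7, DNAJC8, DNAJC13 and DNAJC21 summed to between 1055 and 2809, and the other 17 genes to less than 1000. In DNAJC21, which acts in ribosome biogenesis, the processed DNAJC21-205 had 322 and the protein-coding DNAJC21-211 had 235, DNAJC21-208 had 204 and DNAJC21-209 had 197. DNAJC10, an ER disulfide reductase, had 288 in the decay transcript DNAJC10-202, beside 230 and 188 in the protein-coding DNAJC10-211 and DNAJC10-210. DNAJC17, found in spliceosomes, summed to 368 and spread over 10 transcripts, 5 of them decay and 2 retained-intron transcripts. Non-coding isoforms held 71.8% of its counts, though its most abundant transcript was the protein-coding DNAJC17-201, at 93.7. DNAJC15 and DNAJC19, of the mitochondrial import motor, summed to 200 and 71.1. DNAJC15 divided into 100.4 for the processed DNAJC15-202 and 99.4 for the protein-coding DNAJC15-201, and DNAJC19-210, a decay transcript, had 39.8 against 13.7 for the protein-coding DNAJC19-205. DNAJC27, a Rab-like GTPase, had 22.1 in the decay transcript DNAJC27-202 and 21.6 in the protein-coding DNAJC27-207. The read-through DNAJC25-GNG10, which shares exons with DNAJC25, had 214 beside the 777 of DNAJC25. The lncRNAs beside DNAJC genes were low, with 37.6 and 16.8 for DNAJC3-DT, 6.34 for DNAJC9-AS1 and 4.21 for DNAJC27-AS1. Reads on opposite strands at these neighbouring loci can be told apart if strand is used in counting. The libraries were made with a stranded kit, and the strand setting of the counting is not given in the sources used here.

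**Figure D4:**
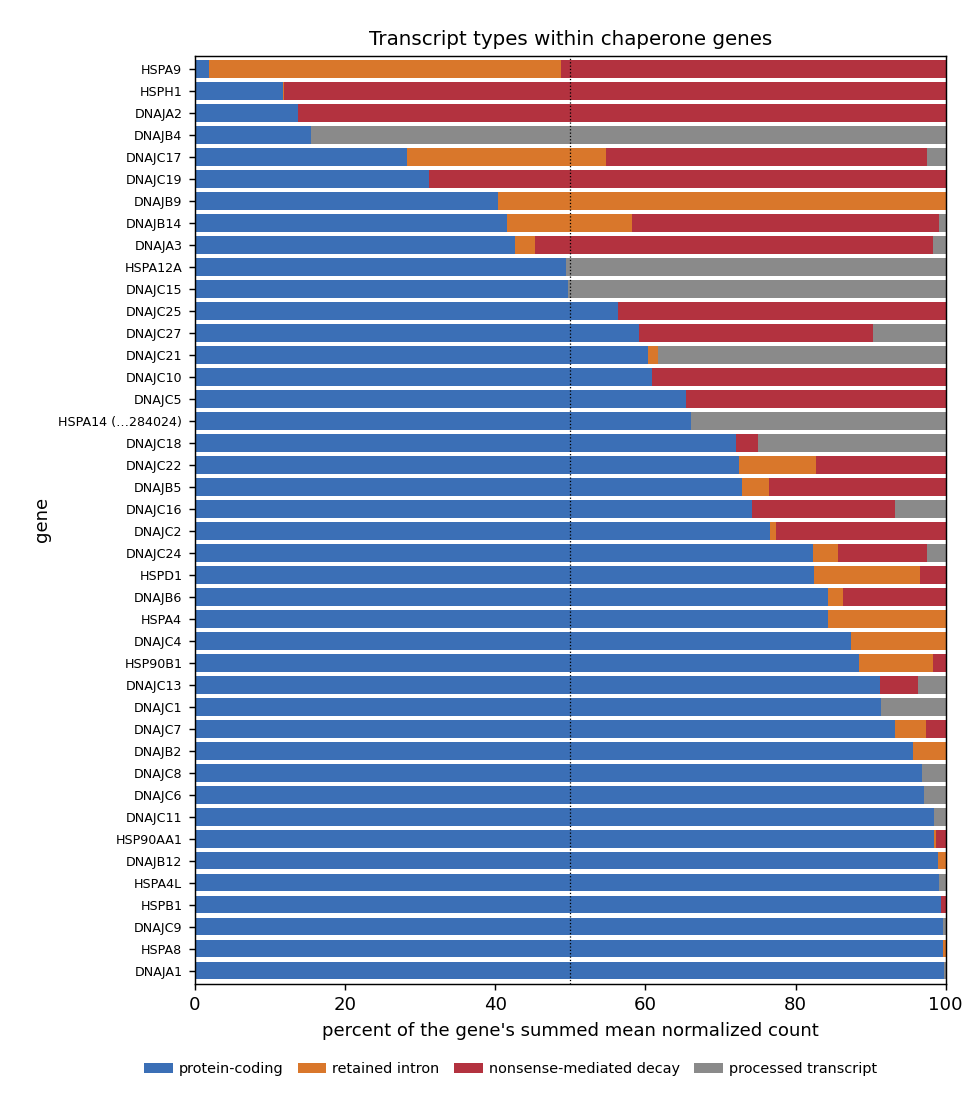
Transcript types within the 42 chaperone genes that have at least 1 non-coding isoform. Each bar is a gene and divides its summed mean normalized count, in percent, into protein-coding, retained-intron, decay and processed transcripts, with a dotted line at 50%. The 11 uppermost genes have less than 50% in protein-coding transcripts, led by HSPA9 with 1.88%.

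Seen by transcript type, the protein-coding chaperone genes fall into 12 with a single listed transcript, 9 with several that are all coding, and 42 with at least 1 non-coding isoform. The 42 are 66.7% of the 63 genes, close to the 66.0% of all protein-coding genes with such an isoform. The 12 include the intronless HSPA1B and HSPA6. In the genes with at least 2 listed transcripts the most abundant transcript held a median of 61.2% of the counts, with quartiles of 46.5% and 83.3%, beside 59.7% with quartiles of 45.5% and 77.4% over all genes. In 12 of the 63 genes (19.0%) the most abundant transcript was not of the protein-coding type, beside 12.9% of all protein-coding genes. These are HSPA9, HSPH1, HSPA12A, DNAJA2, DNAJA3, DNAJB4, DNAJB9, DNAJC10, DNAJC15, DNAJC19, DNAJC21 and DNAJC27.

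Non-coding isoforms were also counted in 3 lists by compartment and induction, which were chosen with earlier results of these data known. Of the 8 listed mitochondrial genes, HSPA9, HSPD1, HSPE1, DNAJA3, DNAJC15, DNAJC19 and the cofactors TRAP1 and GRPEL1, 5 had more than 50% of their counts in non-coding isoforms, and the median share was 53.8%. The 5 are HSPA9, DNAJA3, DNAJC15, DNAJC19 and GRPEL1, the exchange factor of HSPA9, in which the retained-intron GRPEL1-203 held 70.8% of 1678. HSPE1, HSPD1 and TRAP1, the mitochondrial HSP90, had shares of 0%, 17.5% and 12.8%. DNAJC15 passed 50% narrowly, at 100.4 against 99.4, with no error to set beside it. The list leaves out DNAJC11, DNAJC30 and GRPEL2, which are mitochondrial too and had shares of 1.56%, 0% and 17.9%. With them, a choice made with the values known, 5 of 11 genes passed 50% and the median fell to 17.9%. Of the 11 listed heat-inducible genes HSPA1A, HSPA1B, HSPA6, HSPA8, HSPH1, HSPB1, HSP90AA1, DNAJB1, DNAJA1, HSPD1 and HSPE1, only HSPH1 passed 50%, and the median share was 0.168%. It leaves out BAG3, also heat-inducible, at 0%, and HSP90AB1 and DNAJB6, whose heat shock elements have no mismatch, at 0% and 15.7%. Also outside this list are the carriers with 1 mismatch HSPA1L, HSPA4L, DNAJC15, DNAJB4 and HSPA9, at 0%, 0.949%, 50.3%, 84.5% and 98.1%. These were named with the values known. The list of 8 ER stress genes held HSPA5, HSP90B1, HSPA13, DNAJB9, DNAJB11, DNAJC3, DNAJC10 and HYOU1. Only DNAJB9 of them passed 50%, and the median was 1.50%. This list does not hold every ER gene. It leaves out DNAJB12, DNAJB14, DNAJC1 and SIL1, with shares of 0.988%, 58.4%, 8.64% and 26.1%, named here with the values known. HSPD1 and HSPE1 are in both the mitochondrial and the heat-inducible list. Beside these, 12.6% of all protein-coding genes passed 50%. The lists are short and no test was run on them.

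The regulators and cofactors of these chaperones showed a similar range. HSF1, the transcription factor of the heat shock response, summed to 4508 over 13 listed transcripts, with 16.9% in non-coding isoforms, and HSF2 summed to 171. HSF4 summed to 133, and the non-coding isoforms held 75.3% of that. All 23 listed cochaperones of HSP70 and HSP90 were present, with sums between 253 and 19664. Of the 23, 2 passed 50% in non-coding isoforms, against 12.6% of all protein-coding genes. These were GRPEL1 at 80.0% and CHORDC1 at 78.4%. Among the others, STIP1, which bridges HSP70 and HSP90, summed to 16185 with 0.934% in non-coding isoforms, and BAG3, the heat-inducible exchange factor, summed to 7486 with none. The median share over the 23 was 6.96%.

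Which transcripts were listed bears on all these shares. A transcript named 201 was listed for 54 of the 63 protein-coding chaperone genes (85.7%), against 80.0% of all protein-coding genes. RefSeq has 72 protein-coding symbols that match the name rule, of which 61 had a listed transcript, and the other 11 were not analysed here. Read-sharing between isoforms of a gene was resolved by estimation, and its part in the isoform shares was not tested. The RNA was nuclear and depleted of ribosomal RNA, so it can include incompletely spliced RNA. The part of such RNA in the isoform shares was not tested either.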

How the data were processed

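MDA-MB-231 cells with Flag-YTHDC1 gave 2 IP and 2 input libraries, grouped by their titles. The authors aligned reads to GENCODE v33 transcripts (STAR, version 2.7.2b), estimated reads per transcript with RSEM (version 1.2.31), kept transcripts above a minimum of reads in part of the libraries, corrected batch effects with RUVSeq and ran DESeq2. The labels name GRCh38. The deposited signal value is the authors' mean over all libraries of counts divided by size factors. The deposited table also holds their log2 fold changes, standard errors, p-values and adjusted p-values. These are the authors' own comparison and were not used.

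Gene totals are sums of the mean normalized count over listed transcripts, by gene identifier. Isoform shares are percentages of that sum. Promoter windows and gene positions are from RefSeq (GRCh38.p14), where all 67 member symbols were found, HSPB11 as IFT25. The sums and the motif search were tested on simulated data. Python 3.11.15, pandas 2.3.3, numpy 2.4.6 and matplotlib 3.10.9 were used. Depth per library is unknown. A count test of IP against input was planned only for counts per library.

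Named in full were the 3 genes with the highest sums in HSPA, HSPB, DNAJA, DNAJB and DNAJC, the HSP90 genes, HSPD1, HSPE1, HSPH1, HSPA1A, HSPA1B and genes led by a transcript that is not protein-coding. Other members named beside them were chosen after their values were seen. The members and lists were chosen with earlier results of these data known.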

Additional observations from a re-analysis of the deposited data

How the results depend on the processing

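No paired analysis was possible because the table gives no value per library, and for the same reason leaving out a replicate, another count test and another low-count filter in a test of IP against input were not run. Levels per kilobase of coding length were not run, since no protein table was at hand. A minimum mean normalized count of 10 left 243 of the 283 member transcripts, and a minimum of 100 left 122. With protein-coding transcripts alone, the member counts summed to 279229 instead of 303813, and the shares became 41.5% for HSP90, 36.1% for HSPA and 18.3% for DNAJ genes, beside 19.8% for DNAJ genes over all transcripts. With the most abundant transcript of each gene alone, the sum was 227255 and the shares were 43.3%, 32.4% and 18.9%. Among the 63 protein-coding members, retained-intron transcripts alone passed 50% of the counts in 1 gene and decay transcripts alone in 5. All non-coding isoforms together did so in 11. Over all 14050 protein-coding genes these numbers were 332, 662 and 1770. Retained-intron and decay transcripts held 2.48% and 4.98% of the counts of the protein-coding members. Without transcripts below 10, non-coding isoforms held 8.004% of these counts, and without HSPA9 6.02%. With DNAJC11, DNAJC30 and GRPEL2 added, the median share of the mitochondrial list was 17.9% instead of 53.8%. With 1 mismatch, 16 genes held a heat shock element instead of 7. The median share of the most abundant transcript stayed at 61.2% without transcripts below 10 and in genes of at least 100.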

Other observations

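The cytosolic chaperonin TRiC folds actin and tubulin with its partner prefoldin. All 8 TRiC genes were listed, with summed mean normalized counts between 1502 and 12827, and none had more than 50% of its counts in non-coding isoforms, with a median share of 7.93%. CCT4-201 held 99.1% of the CCT4 counts, whereas the most abundant TCP1 transcript, TCP1-215, held 22.5% of the TCP1 counts. Of the 6 prefoldin genes, PFDN1 and PFDN4 passed 50%, against 12.6% of all protein-coding genes, and the median share was 7.83%. By counts, non-coding isoforms held 20.0% of the prefoldin total and 7.83% of the TRiC total. No test was run on either list. In PFDN1 the retained-intron PFDN1-204 held 40.7% of 953, and the 3 listed PFDN4 transcripts, which summed to 89.5, were all non-coding isoforms.

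The 14 pseudogene transcripts that match the chaperone names and were left out summed to 348 and lay between 4.81 and 133, the highest being HSP90AB3P-201. Its parent gene HSP90AB1 summed to 42274.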
